A study of Mus musculus with 54 samples.

Results

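Endothelial cells line the vessels of the brain, and 10 genes that mark them were followed here through every group of a mouse array study: Flt1, Ptprb, Klf2, Cldn5, Pecam1, Kdr, Cdh5, Esam, Slc2a1 and Itm2a. The genes were chosen by name with earlier results of these data known, so shares of members beside shares of all genes are descriptions. A probe was taken as theirs where the platform annotation gives the symbol. This named 12 of the 25697 probes, for 9 of the 10 genes, while Cldn5, the main claudin of the barrier, has no probe under its symbol and was not analysed here. A gene was tested where 1 of its probes was detected (detection p of 0.02 or less) on every array of at least 1 group, which held for 8 members among 8757 genes in the dentate gyrus (DG) and for 8 among 8545 in the lateral entorhinal cortex (LEC). Cdh5, VE-cadherin of the endothelial junction, was detected on 0 of 26 DG arrays and 0 of 28 LEC arrays and was not tested. Flt1 and Itm2a each have a second probe, detected on 0 arrays, and the second probe of Pecam1 was detected on 3 DG arrays and 0 LEC arrays, so 1 probe stands for each gene.

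The animals were male C57BL/6J mice, 1 month old at the start and housed singly. ACR mice received daily intraperitoneal AICAR, an activator of the energy sensor AMPK, at 500 mg/kg for 7 days (ACR7) or 14 days (ACR14). RUN mice had a running wheel and received saline for 7 or 14 days (RUN7, RUN14), and CTR mice received saline alone. The labels add running and control groups of 28 days (RUN28, CTR28), which the methods of the study do not describe. Whether the age, housing and injections above hold for these 28-day groups is not stated. ACR7 and RUN7 share their controls (CTR7), RUN14 has the first set of 14-day controls (CTR14a), ACR14 the second (CTR14b), and RUN28 has CTR28. Each group has 3 arrays per tissue, 1 mouse per array, except 2 for CTR14a in DG and 4 for CTR28 in LEC. Only the RNA samples of highest purity and concentration were put on arrays, per the methods of the study. The 54 arrays come from 33 mice, 21 of which gave both tissues.

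Brain endothelium differs from that of most organs in its sealed junctions and in carriers that move nutrients from blood to tissue. Its growth and upkeep depend on VEGF, which binds the receptors encoded by Kdr (VEGFR2, the main signalling receptor) and Flt1 (VEGFR1, which binds VEGF tightly but signals weakly). Ptprb (VE-PTP) is a phosphatase that restrains the angiopoietin receptor Tie2. Pecam1 and Esam are adhesion proteins of endothelial junctions, Slc2a1 (GLUT1) carries glucose across the barrier and is also made by astrocytes, and Klf2 is a transcription factor induced by blood flow. Itm2a is a small membrane protein that is abundant in brain endothelium and also known from T cells, cartilage and muscle.

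The start regions of 4 members are shown because 3 of them, Flt1, Klf2 and Slc2a1, were called together in several LEC comparisons below, and Itm2a was the member called in DG. They are RefSeq promoters of GRCm38.p6, from 250 bases before to 50 after the start, and 6 of the 10 members matched that table. Capitals mark the letters GGAA (the core bound by ETS factors) and CACCC (the core bound by KLF factors), on either strand, so TTCC and GGGTG as well.
Flt1, chr5:147725962-147726261, minus strand: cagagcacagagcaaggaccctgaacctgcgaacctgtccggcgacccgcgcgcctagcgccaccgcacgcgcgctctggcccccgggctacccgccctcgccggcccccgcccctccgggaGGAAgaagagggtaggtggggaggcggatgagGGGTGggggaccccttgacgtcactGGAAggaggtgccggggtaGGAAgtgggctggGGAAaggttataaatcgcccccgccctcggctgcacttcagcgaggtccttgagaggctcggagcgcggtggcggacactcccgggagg
Klf2, chr8:72318812-72319111, plus strand: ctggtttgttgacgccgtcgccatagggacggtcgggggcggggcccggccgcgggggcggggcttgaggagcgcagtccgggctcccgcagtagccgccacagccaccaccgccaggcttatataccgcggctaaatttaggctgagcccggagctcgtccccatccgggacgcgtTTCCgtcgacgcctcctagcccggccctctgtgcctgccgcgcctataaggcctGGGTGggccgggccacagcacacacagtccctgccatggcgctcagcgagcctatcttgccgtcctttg
Slc2a1, chr4:119108495-119108794, plus strand: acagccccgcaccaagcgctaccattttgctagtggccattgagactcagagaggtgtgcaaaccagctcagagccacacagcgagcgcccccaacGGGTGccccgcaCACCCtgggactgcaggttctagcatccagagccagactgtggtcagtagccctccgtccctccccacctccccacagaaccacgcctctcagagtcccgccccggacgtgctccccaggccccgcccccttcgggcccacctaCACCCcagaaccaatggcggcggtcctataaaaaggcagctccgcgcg
Itm2a, chrX:107403311-107403610, minus strand: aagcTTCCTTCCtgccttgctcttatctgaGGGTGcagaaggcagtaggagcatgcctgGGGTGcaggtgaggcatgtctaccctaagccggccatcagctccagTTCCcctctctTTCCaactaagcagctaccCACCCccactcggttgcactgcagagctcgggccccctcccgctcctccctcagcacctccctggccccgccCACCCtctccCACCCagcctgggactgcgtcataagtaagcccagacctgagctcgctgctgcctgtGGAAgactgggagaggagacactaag
GGAA occurs 4 times in the Flt1 window, 1 time in that of Klf2, 0 times in that of Slc2a1 and 5 times in that of Itm2a. Among all 32841 promoters of this length, 96% hold it. CACCC occurs 1 time each for Flt1 and Klf2, 3 times for Slc2a1 and 5 times for Itm2a, against 57.5% of all promoters with at least 1. The windows of Flt1, Klf2 and Slc2a1 are 70.7%, 69.3% and 65.3% G or C, where the median promoter has 52.7%. These matches describe letters only.

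A level below is a probe's log2 intensity after each array was z-transformed and returned to log2 units with the mean and the mean SD of the arrays of its tissue, and a difference is given on that scale with its standard error (SE). limma's p was adjusted over all genes of a fit, and called means an adjusted p under 0.05. An array detected 11495 to 13219 probes, and arrays of 1 group correlated at 0.975 to 0.996. The sample labels read HIPP and CTX, and the study names these tissues DG and LEC. The 3 tested markers of granule neurons all had higher levels in DG. Cortex markers as a list were not higher in LEC. The mean of 7 of them was 9.03 to 9.3 over the DG groups and 8.67 to 9.13 over the LEC groups, each on the scale of its tissue. In DG the 3 CTR7 arrays lay far apart in the members, with a mean level over the 8 genes of 7.81 to 8.49. The RUN7 arrays of DG lay between 8.44 and 8.58. Each array holds a whole piece of tissue, so fewer endothelial cells and less RNA per cell cannot be told apart.

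Running for 7 days went with higher levels of 4 of the tested endothelial genes in the LEC, namely Flt1, Ptprb, Klf2 and Slc2a1. Of the 8 members, 4 were called higher in RUN7 than in CTR7 and 0 lower, where 0.971% of all genes were called and 0.714% were called higher. All 8 differences were positive, as were 48.8% of those of all genes, at a median of 0.50 against -0.006 over all genes, and 6 of the 8 had groups that did not overlap, as did 15.4% of all genes. Flt1 read 9.66, 9.66 and 9.76 in RUN7, against 8.38, 8.93 and 7.93 in CTR7. Every RUN7 array was above every CTR7 array, with a log2 difference of 1.28 (SE 0.227, adjusted p = 0.0103). Ptprb read 8.30, 7.90 and 7.93 in RUN7, against 6.87, 7.15 and 6.48 in CTR7. Its groups also lay apart, by 1.21 (SE 0.212, adjusted p = 0.0103). Klf2 read 8.03, 8.09 and 8.20 in RUN7, against 6.97, 6.94 and 7.34 in CTR7, and rose by 1.02 (SE 0.201, adjusted p = 0.0210). Slc2a1, the glucose carrier, read 10.05, 9.67 and 9.82 in RUN7, against 9.36, 9.42 and 9.19 in CTR7. It rose by 0.52 (SE 0.127, adjusted p = 0.0430), the smallest of the 4 rises. Pecam1 differed by 0.48 and Itm2a by 0.28, both without overlap and neither called (adjusted p = 0.113 and 0.28). Pecam1 was detected on 3 of 3 RUN7 arrays and 1 of 3 CTR7 arrays, and it entered the LEC test only through RUN7 and CTR28. Its place in the median and in the counts of positive and non-overlapping members therefore lends no support. Esam differed by 0.25 and Kdr by 0.09, with overlapping groups. With CTR7 replicate 1 or RUN7 replicate 3 left out, 0 members were called, where 2 and 0 of all genes were called. Without CTR7 replicate 2 or RUN7 replicate 2, Flt1 and Ptprb were called, among 14 and 8 genes. The Slc2a1 call was lost without each of the 6 arrays in turn. In a fit of these 6 arrays alone, 0 members and 0 of all genes were called (adjusted p = 0.275 for Flt1).

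**Figure D1:**
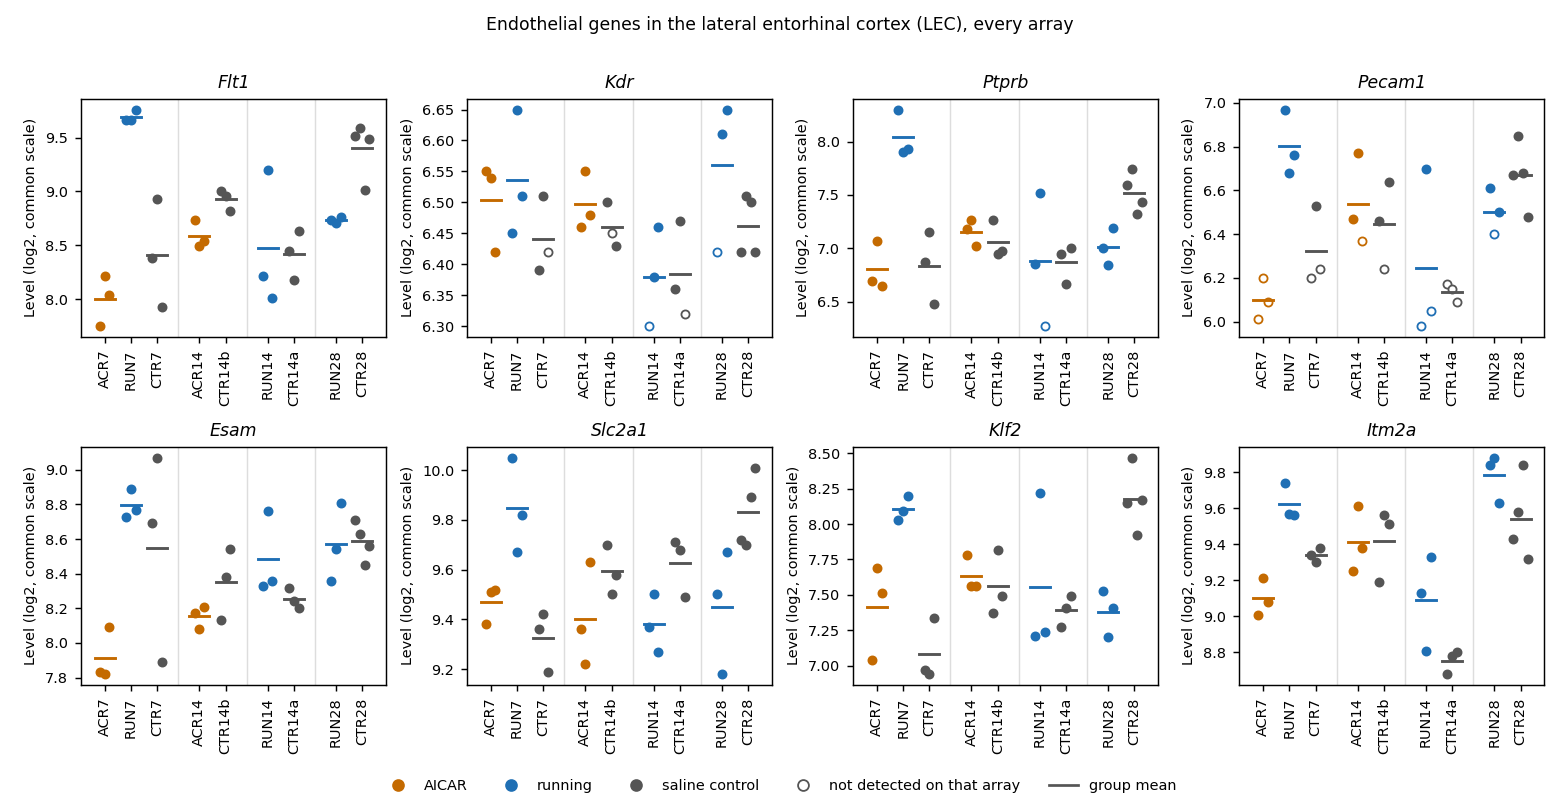
Level of the 8 tested endothelial genes on each of the 28 LEC arrays (log2, common scale; each gene has its own axis), by group, with open circles for arrays where the probe was not detected and a bar for the group mean. Flt1, Ptprb and Klf2 are high in RUN7 and CTR28, with RUN7 at 9.66 to 9.76 for Flt1 and CTR7 at 7.93 to 8.93.

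Other genes of the vessel wall were counted from lists by role. Among endothelial transcription factors, 8 of 8 tested in LEC had positive differences in RUN7 against CTR7 (median 0.36), and 2 of them were called. Foxq1, a forkhead factor, averaged 7.99 in RUN7 and 6.91 in CTR7 (log2 difference 1.08, adjusted p = 0.0193). Gata2 was detected on 3 RUN7 arrays and 0 CTR7 arrays, and was at least 1.09-fold higher in RUN7 (adjusted p = 0.0224). It met the detection filter in RUN7, where it is high, and not in CTR7, ACR7 or CTR28. Its place in the counts of positive and called factors therefore lends no support. Among 10 carriers of the blood-brain barrier, 2 were called higher. They were Slco1a4, an organic anion transporter (7.28 in RUN7 and 6.52 in CTR7, adjusted p = 0.0103), and Slc7a5, a carrier of large neutral amino acids (10.56 in RUN7 and 10.13 in CTR7, adjusted p = 0.0310). Of 7 junction and adhesion genes, 1 was called higher, Icam2, an adhesion protein that binds leukocytes (7.13 in RUN7 and 6.57 in CTR7, adjusted p = 0.0224). Of 19 receptors and surface proteins, 0 were called, though 17 had positive differences (median 0.28). Of 6 VEGF and angiopoietin ligands, 0 were called (median 0.12), and of 8 pericyte and vessel wall genes, 0 were called (median 0.08). No gene of these lists was called lower.

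Markers of some other cells also stood apart in these arrays. The mean level of 7 microglial markers was 8.18 to 8.36 in RUN7 and 8.43 to 8.61 in CTR7, with 7 of 7 differences negative (median -0.25) and 0 called. The mean of 6 oligodendrocyte markers was 10.73 to 11.11 in RUN7 and 11.10 to 11.61 in CTR7, with 6 of 6 negative (median -0.47) and 0 called. The mean of 8 pericyte and vessel wall genes was 7.44 to 7.51 in RUN7 and 7.27 to 7.39 in CTR7. The 6 neuronal markers overlapped, at 12.14 to 12.33 in RUN7 and 12.11 to 12.66 in CTR7. Of 7 cortex markers, Bcl11b was called higher in RUN7 (0.89, adjusted p = 0.0395). The part of these differences in the endothelial result was not tested.

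AICAR for 7 days left 0 of 8 members called in the LEC, where 1.39% of all genes were called, and 1 member had an unadjusted p under 0.05, against 16.1% of genes. That member was Esam, which read 7.83, 7.82 and 8.09 in ACR7, against 8.69, 9.07 and 7.89 in CTR7. The groups overlapped through 1 low CTR7 array (log2 difference -0.63, adjusted p = 0.0747), and without that array Esam was called, as 1 of 445 genes. Differences of the 8 genes ran between -0.63 and 0.33, with Klf2 at the upper end (7.04, 7.69 and 7.51 in ACR7, against 6.97, 6.94 and 7.34 in CTR7, adjusted p = 0.434). Cd34, a surface sialomucin of vessels, and Rgs5, a pericyte gene, were called lower in ACR7 (log2 differences -0.97 and -0.76, adjusted p = 0.0254 and 0.0454). The cortex marker Bcl11b was called higher in ACR7 (0.965, adjusted p = 0.0211). Clic6, a choroid plexus gene, was detected on 3 ACR7 arrays and 0 CTR7 arrays and was at least 2.21-fold higher in ACR7. The part of choroid plexus RNA in these values was not tested.

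Set directly against each other, ACR7 and RUN7 differed in the LEC at 3 members, all lower in ACR7, where 0.152% of all genes were called. The 13 genes called in this comparison were all lower in ACR7, and 3 of them are members. Flt1 read 7.75, 8.21 and 8.04 in ACR7, against 9.66, 9.66 and 9.76 in RUN7, so that the groups lay far apart (log2 difference -1.69, SE 0.227, adjusted p = 0.000334). Ptprb read 6.69, 7.07 and 6.65 in ACR7, against 8.30, 7.90 and 7.93 in RUN7 (log2 difference -1.24, SE 0.212, adjusted p = 0.00558). Esam read 7.83, 7.82 and 8.09 in ACR7, against 8.73, 8.89 and 8.77 in RUN7 (log2 difference -0.88, SE 0.185, adjusted p = 0.0447). Kdr was the one member whose groups overlapped, and the other 7 did not, against 10.2% of all genes. These 7 include Pecam1, which passed the detection filter only through RUN7 and CTR28, where it is high, so that its place in the count lends no support. Pecam1 was detected on 0 ACR7 arrays and 3 RUN7 arrays, and was at least 1.34-fold higher in RUN7 (adjusted p = 0.0569). The median difference was -0.70, or -0.61 with Pecam1 at its bound, against 0.008 over all genes. Of the vessel lists, Icam2 (-0.78), Slco1a4 (-0.88), Robo4, a receptor that steadies vessels (-0.88), and Rgs5 (-1.07) were called lower in ACR7 as well, and Gata2 was detected on 0 ACR7 arrays. Gata2 met the detection filter in RUN7, where it is high, so its lower level in ACR7 lends no support. The call of Flt1 held without each of the 6 arrays in turn, and that of Esam was lost each time (adjusted p = 0.11 to 0.303). The Esam call was lost as well under quantile or neqc scaling, with no detection filter or the stricter one, with every probe, over the arrays of days 7 and 14 alone, and with the replicate number as a block (adjusted p = 0.104). Without RUN7 replicate 1, ACR7 replicate 1 or ACR7 replicate 3, Flt1 was the 1 member called, where 4, 4 and 5 genes were called. Markers of other cells stood apart without overlap here. The mean level of 7 microglial markers was 8.52 to 8.55 in ACR7 and 8.18 to 8.36 in RUN7, that of 2 choroid plexus genes 7.39 to 8.25 in ACR7 and 6.64 to 7.05 in RUN7, and that of 8 astrocyte markers 10.11 to 10.19 in ACR7 and 10.02 to 10.06 in RUN7. That of 8 pericyte and vessel wall genes was 7.13 to 7.29 in ACR7 and 7.44 to 7.51 in RUN7. Their part in the endothelial result was not tested.

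**Figure D2:**
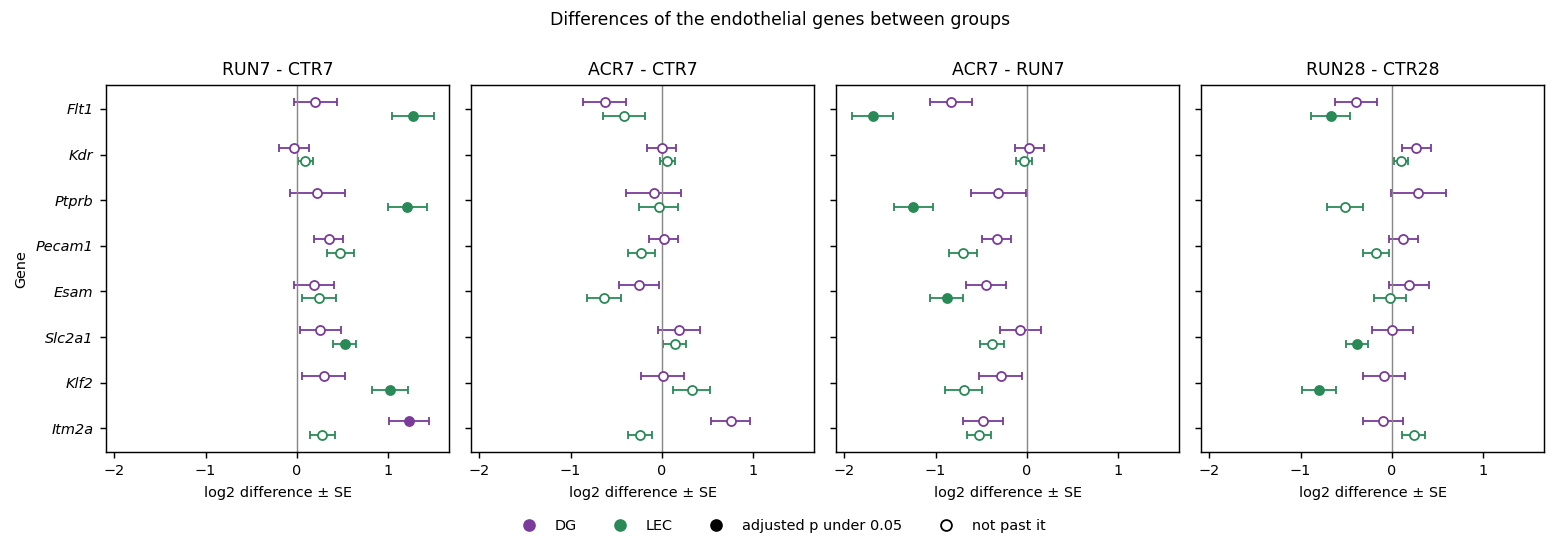
Log2 difference with its standard error for each of the 8 members in 4 comparisons, DG above LEC in each pair, filled where the adjusted p is under 0.05. In LEC, Flt1, Ptprb, Klf2 and Slc2a1 lie right of 0 in RUN7 against CTR7 (1.28, 1.21, 1.02 and 0.52), and Flt1, Klf2 and Slc2a1 lie left of 0 in RUN28 against CTR28.

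After 28 days of running the members called in the LEC, Klf2, Flt1 and Slc2a1, were lower than in controls. Of the 8 members, 3 were called lower in RUN28 than in CTR28 and 0 higher, where 14.9% of all genes were called, 7.67% lower. Klf2 read 7.53, 7.20 and 7.41 in RUN28, against 8.15, 8.47, 7.92 and 8.17 in CTR28 (log2 difference -0.80, SE 0.188, adjusted p = 0.00764). Flt1 read 8.73, 8.71 and 8.76 in RUN28, against 9.51, 9.59, 9.01 and 9.49 in CTR28 (log2 difference -0.67, SE 0.212, adjusted p = 0.0357). Slc2a1 read 9.50, 9.18 and 9.67 in RUN28, against 9.72, 9.70, 9.89 and 10.01 in CTR28 (log2 difference -0.38, SE 0.119, adjusted p = 0.0349). The groups of all 3 genes lay apart. Ptprb lay apart as well without a call (-0.51, adjusted p = 0.0809), which makes 4 of 8 members, against 28.4% of all genes. The other 4 overlapped, with Itm2a (0.24) and Kdr (0.10) positive. The Klf2 call held without each of the 7 arrays in turn, while that of Flt1 was lost without each of them except CTR28 replicate 3 (adjusted p up to 0.101). That of Slc2a1 was lost without CTR28 replicate 3 or 4 or RUN28 replicate 1 or 2. Klf2 was the 1 member call left without CTR28 replicate 4, RUN28 replicate 1 or RUN28 replicate 2, where 832, 1019 and 577 genes were called. With array weights in limma 5 members were called, namely Flt1, Klf2, Ptprb, Slc2a1 and Itm2a, among 2641 genes called of 8545. With the replicate number as a block 1 was called (Klf2), among 683 genes.

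Other vessel genes held calls too. Of 8 endothelial transcription factors, Ets1, Ets2 and Foxc1 were called lower in RUN28 (-0.42, -0.49 and -0.55), and 0 higher. Of 19 receptors and surface proteins, Palmd, Thbd (thrombomodulin, an anticoagulant receptor) and Plxnd1 (a semaphorin receptor) were called lower (-0.65, -0.60 and -0.56), the groups of Thbd overlapping. Egfl7, a protein that endothelium secretes, was called higher (0.39). The carrier Mfsd2a, which moves lipids of omega-3 fatty acids into brain, was called lower (-0.42), and so was Vegfa, the ligand of Flt1 and Kdr (-0.32). Markers of other cells differed here too. The mean level of 2 haemoglobin genes was 9.82 to 10.11 in RUN28 and 9.20 to 9.51 in CTR28, both called higher, and that of 6 oligodendrocyte markers was 11.27 to 11.91 in RUN28 and 10.80 to 10.96 in CTR28, with Mog called. Their part in the endothelial result was not tested.

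**Figure D3:**
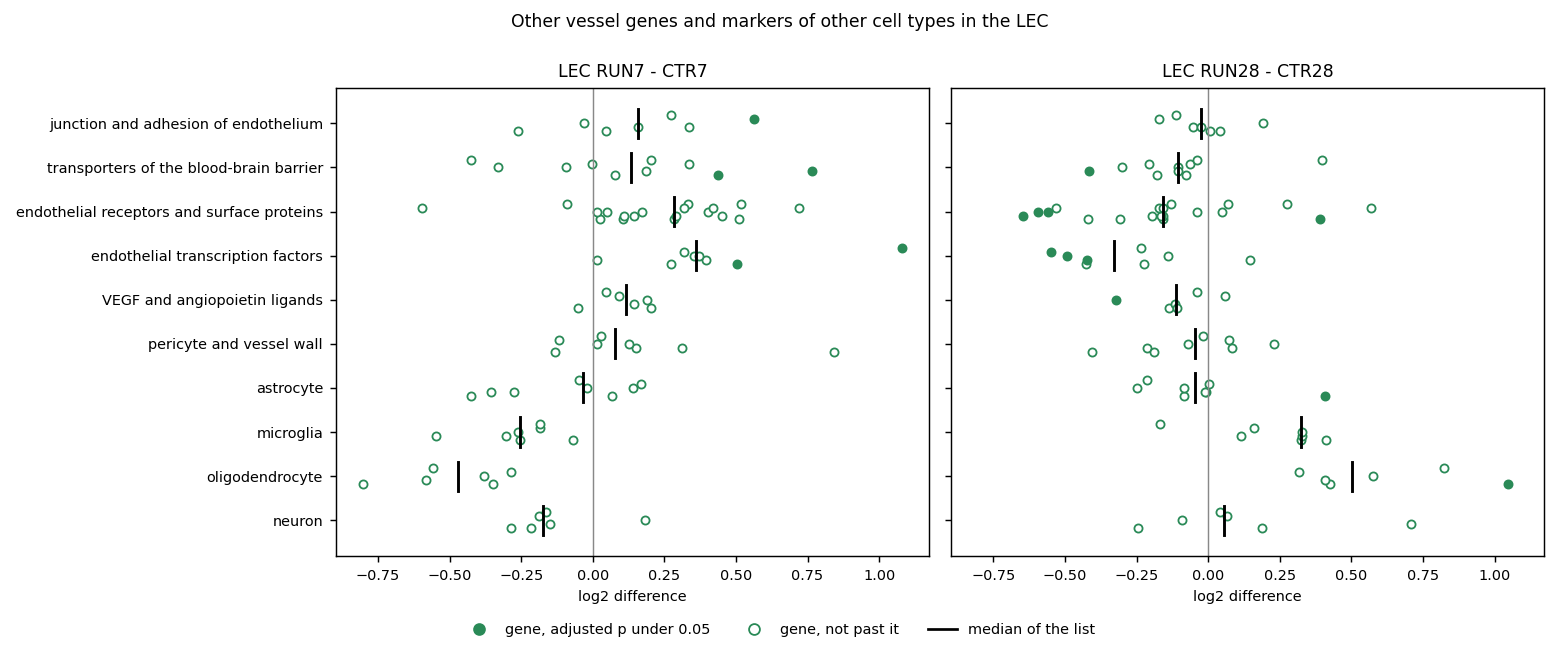
Log2 difference of each gene of 6 vessel lists and 4 lists of other brain cells in LEC, for RUN7 against CTR7 and RUN28 against CTR28, filled where the adjusted p is under 0.05, with the median of each list as a bar. Transcription factors of endothelium lie at a median of 0.36 in RUN7 against CTR7 and -0.33 in RUN28 against CTR28, and oligodendrocyte markers at -0.47 and 0.50.

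The 2 running effects were then tested against each other. The RUN28 effect was below the RUN7 effect at Flt1, Klf2, Ptprb and Slc2a1 in LEC, and Pecam1 made 5 of 8 members called, where 17.5% of all genes were called and 8.77% in that direction. The difference was -1.94 for Flt1 (SE 0.310, adjusted p = 0.000508), -1.82 for Klf2 (SE 0.275, adjusted p = 0.000381) and -1.72 for Ptprb (SE 0.290, adjusted p = 0.000824). It was -0.90 for Slc2a1 (adjusted p = 0.00194). The -0.65 for Pecam1 (adjusted p = 0.0325) lends no support, because Pecam1 passed the detection filter in LEC only through RUN7 and CTR28, the 2 groups whose levels enter this difference with a minus sign. With no detection filter its adjusted p was 0.0499, and its call was lost without CTR7 replicate 1 or 3, RUN7 replicate 1 or 3, CTR28 replicate 2, or RUN28 replicate 2 or 3. The other 4 were called with each of the 13 arrays left out in turn, and 3 with a detection p of 0.01 or less required on every array, a filter that Ptprb, Pecam1 and Kdr did not pass.

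The controls of the LEC also differed between days. Of the 8 members, 4 were called higher in CTR28 than in CTR7 and 0 lower, where 16.2% of all genes were called and 7.37% were called higher. Flt1 was 0.99 higher in CTR28 (SE 0.212, adjusted p = 0.00299), Klf2 1.09 (SE 0.188, adjusted p = 0.000406), Ptprb 0.68 (SE 0.198, adjusted p = 0.0202, lost without CTR28 replicate 2, CTR7 replicate 1 or CTR7 replicate 3) and Slc2a1 0.51 (SE 0.119, adjusted p = 0.00544). These sets of mice differ in their day, and age, handling and any processing batch may differ with it, which cannot be told apart. Endothelial transcription factors stood higher in CTR28 as a list, with 6 of 8 called (Foxq1, Ets2, Gata2, Sox18, Foxc1 and Epas1). Gata2 was detected on 2 of 4 CTR28 arrays and 0 CTR7 arrays. The other vessel lists went both ways. Cd34, Rgs5 and the transferrin receptor gene Tfrc were called lower in CTR28 (-0.85, -0.56 and -0.65). Icam2, Ctnnb1, Slco1a4, Slc3a2, Slc7a5, Podxl, Ramp2, Plxnd1 and Acta2 were called higher. Among markers of other cells, the mean of 6 oligodendrocyte markers was 10.80 to 10.96 in CTR28 and 11.10 to 11.61 in CTR7, with Mog called lower in CTR28 (-0.92, adjusted p = 0.0328). The neuronal gene Syt1 and the cortex markers Cux2, Rorb and Tle4 were called lower in CTR28 (-0.60, -0.77, -0.74 and -0.53). The cortex marker Bcl11b was called higher (0.80). Clic6 of the choroid plexus and Col1a2 of fibroblasts were called higher in CTR28 and were detected on 4 CTR28 arrays and 0 CTR7 arrays (at least 1.48-fold and 1.12-fold). The part of these cells in the endothelial values was not tested. For Flt1 the order of the 9 LEC group means was ACR7 (8.0 ± 0.23, SD), CTR7 (8.41 ± 0.50), CTR14a (8.42 ± 0.23), RUN14 (8.47 ± 0.64), ACR14 (8.59 ± 0.13), RUN28 (8.73 ± 0.03), CTR14b (8.93 ± 0.09), CTR28 (9.40 ± 0.26, n = 4) and RUN7 (9.69 ± 0.06), with n = 3 elsewhere. Neighbours in that order overlapped, apart from RUN28 and CTR14b, CTR14b and CTR28, and CTR28 and RUN7. RUN28 stood between the 2 sets of 14-day controls, and CTR28 stood next to RUN7.

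At 14 days the LEC gave no calls, for the members or for any other gene. For ACR14 against CTR14b, 0 members had an unadjusted p under 0.05, as did 14.3% of genes. Slc2a1, with the smallest p, read 9.36, 9.22 and 9.63 in ACR14, against 9.70, 9.50 and 9.58 in CTR14b (log2 difference -0.20, SE 0.127, adjusted p = 0.483). For RUN14 against CTR14a, 1 member had an unadjusted p under 0.05, as did 8.75% of genes. Itm2a read 9.13, 8.81 and 9.33 in RUN14, against 8.68, 8.78 and 8.80 in CTR14a, with no overlap (log2 difference 0.34, SE 0.134, adjusted p = 0.469). RUN14 replicate 2 stood above the other RUN14 arrays in Flt1 (9.20 beside 8.21 and 8.01), Ptprb (7.52 beside 6.85 and 6.27), Klf2 (8.22 beside 7.21 and 7.24) and Pecam1 (6.70 beside 5.98 and 6.05). The 2 control sets gave 0 calls for CTR14b against CTR14a, though 2 members had an unadjusted p under 0.05, as did 7.24% of genes. Itm2a read 9.19, 9.56 and 9.51 in CTR14b, against 8.68, 8.78 and 8.80 in CTR14a, also without overlap (log2 difference 0.66, SE 0.134, adjusted p = 0.0892). With array weights Itm2a was called there, as 1 of 56 genes. The 2 sets of saline mice thus had the larger Itm2a difference, although the contrast between the 2 differences was not tested. The ACR14 effect against the ACR7 effect gave 0 member calls in LEC, where 0.0936% of genes were called, and 0 members had an unadjusted p under 0.05, against 17.8% of genes (Slc2a1, -0.34, adjusted p = 0.33).

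In the DG Itm2a was the single member called. In RUN7 against CTR7, 1 of 8 members was called higher and 0 lower, where 3.63% of all genes were called and 1.6% were called higher. Itm2a read 10.28, 10.02 and 9.96 in RUN7, against 8.63, 9.53 and 8.40 in CTR7, with no overlap (log2 difference 1.23, SE 0.218, adjusted p = 0.0112). The call ended without CTR7 replicate 3 or RUN7 replicate 1, and in a fit of these 6 arrays alone (adjusted p = 0.0563). In those fits 0, 0 and 1 of all genes were called. The other members differed by -0.03 to 0.35, and Pecam1 alone among them did not overlap (0.35, adjusted p = 0.199). With Itm2a that makes 2 of 8, against 31.9% of all genes. Flt1 read 9.88, 9.73 and 9.69 in RUN7, against 8.79, 9.47 and 10.42 in CTR7, so that the 3 CTR7 arrays surrounded the RUN7 arrays (log2 difference 0.20, adjusted p = 0.645). Of the vessel lists, Cav2, a caveolin, was called higher in RUN7 (8.0 in RUN7 and 6.84 in CTR7, adjusted p = 0.0184), as was Slco1a4 (7.58 in RUN7 and 6.93 in CTR7, adjusted p = 0.0448). The mean level of 17 receptors and surface proteins was 8.47 to 8.57 in RUN7 and 8.02 to 8.46 in CTR7. That of 9 transcription factors was 7.77 to 7.85 in RUN7 and 7.46 to 7.71 in CTR7. That of 7 VEGF and angiopoietin ligands was 7.87 to 7.97 in RUN7 and 7.5 to 7.85 in CTR7. Junction genes lay apart as well (7.79 to 7.82 and 7.67 to 7.76), while barrier carriers and pericyte genes overlapped. Markers of other cells stood apart in these arrays, with a mean level of 7 meningeal and fibroblast genes of 8.92 to 9.74 in RUN7 and 8.11 to 8.81 in CTR7. That of 4 choroid plexus genes was 7.21 to 7.59 in RUN7 and 6.68 to 6.90 in CTR7, and that of 6 neuronal genes 12.18 to 12.35 in RUN7 and 12.50 to 13.06 in CTR7. The mean of 3 red blood cell genes was 8.74 to 9.41 in RUN7 and 8.22 to 8.65 in CTR7. That of 7 microglial markers was 8.44 to 8.78 in RUN7 and 8.12 to 8.41 in CTR7, a difference of the opposite sign to that in LEC. The cortex marker Etv1 was called higher in RUN7 (1.30, adjusted p = 0.0303). Their part in the Itm2a result was not tested.

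Itm2a was also higher in DG of CTR28 than of CTR7, where 11.1% of all genes were called and 4.29% were called higher. It read 10.36, 9.98 and 9.84 in CTR28, against the same low CTR7 arrays (log2 difference 1.20, SE 0.218, adjusted p = 0.00235). CTR7 held the 2 lowest DG arrays of all for this gene, at 8.40 and 8.63. Without CTR7 replicate 3, Flt1 was called as well, among 318 genes. In a fit of the compared arrays alone 0 members and 0 of all genes were called (adjusted p = 0.108 for Itm2a). The mean of 7 meningeal and fibroblast genes was 8.87 or more in CTR28 and 8.81 or less in CTR7, and that of 7 microglial markers 8.54 to 8.70 in CTR28 and 8.12 to 8.41 in CTR7. The astrocyte gene Gfap and the microglial complement genes C1qb and C1qc were called higher in CTR28 (1.46, 0.59 and 0.77). Of the cortex markers, Etv1 was called higher in CTR28 (1.565) and Bcl11b lower (-0.88). Their part in the Itm2a result was not tested. The RUN28 effect was below the RUN7 effect by 1.33 for Itm2a (log2 difference -1.33, SE 0.308, adjusted p = 0.0185), where 4.1% of all genes were called and 2.1% in that direction, and that call ended without CTR7 replicate 3, RUN7 replicate 1 or RUN28 replicate 2.

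The other DG comparisons gave 0 member calls. In ACR7 against CTR7 0 of all genes were called, and 2 members had an unadjusted p under 0.05, against 14.5% of genes. Itm2a read 9.51, 9.74 and 9.58 in ACR7, against 8.63, 9.53 and 8.40 in CTR7, which overlapped (log2 difference 0.75, SE 0.218, adjusted p = 0.134), and was called without CTR7 replicate 2, as 1 of 35 genes. Klf2 and Pecam1 differed there by 0.01 and 0.02, and their sign turned under quantile or neqc scaling. In ACR7 against RUN7, where 0 of all genes were called and 2 members had an unadjusted p under 0.05, against 7.72% of genes, Flt1 read 9.04, 8.88 and 8.90 in ACR7, against 9.88, 9.73 and 9.69 in RUN7. These did not overlap, with a log2 difference of -0.83 (SE 0.234, adjusted p = 0.606). Pecam1, Esam and Itm2a did not overlap there either and were lower in ACR7, which makes 4 of 8 members, against 16.4% of all genes. With array weights 4 members were called (Esam, Flt1, Itm2a and Pecam1), among 1529 genes called of 8757. In ACR14 against CTR14b, where 4.08% of genes and 0 members had an unadjusted p under 0.05, Slc2a1 had the smallest p. It read 9.80, 10.14 and 9.99 in ACR14, against 10.09, 10.77 and 10.32 in CTR14b (log2 difference -0.41, SE 0.228, adjusted p = 0.999). In RUN14 against CTR14a, where 6.77% of genes and 2 members had an unadjusted p under 0.05, Flt1 read 8.95, 8.51 and 8.89 in RUN14, against 9.25 and 9.52 in CTR14a (log2 difference -0.61, SE 0.261, adjusted p = 0.722). In RUN28 against CTR28, where 0.251% of all genes were called and 0 members had an unadjusted p under 0.05, against 11.9% of genes, Flt1 read 9.71, 9.37 and 9.50 in RUN28, against 9.92, 9.75 and 10.08 in CTR28 (log2 difference -0.39, SE 0.234, adjusted p = 0.487). RUN14, RUN28 and ACR14 each lay below their controls in Flt1 without overlap, the last by -0.265, and none of these differences was called. Of all genes, 25.6%, 12% and 10.3% did not overlap in these comparisons. For CTR14b against CTR14a 0.126% of genes and 0 members were called, and 0 members had an unadjusted p under 0.05, against 17.8% of genes. For the ACR14 effect against the ACR7 effect 0 genes were called, and 1 member, Itm2a, had an unadjusted p under 0.05, against 11% of genes (log2 difference -0.79, adjusted p = 0.398).

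**Figure D4:**
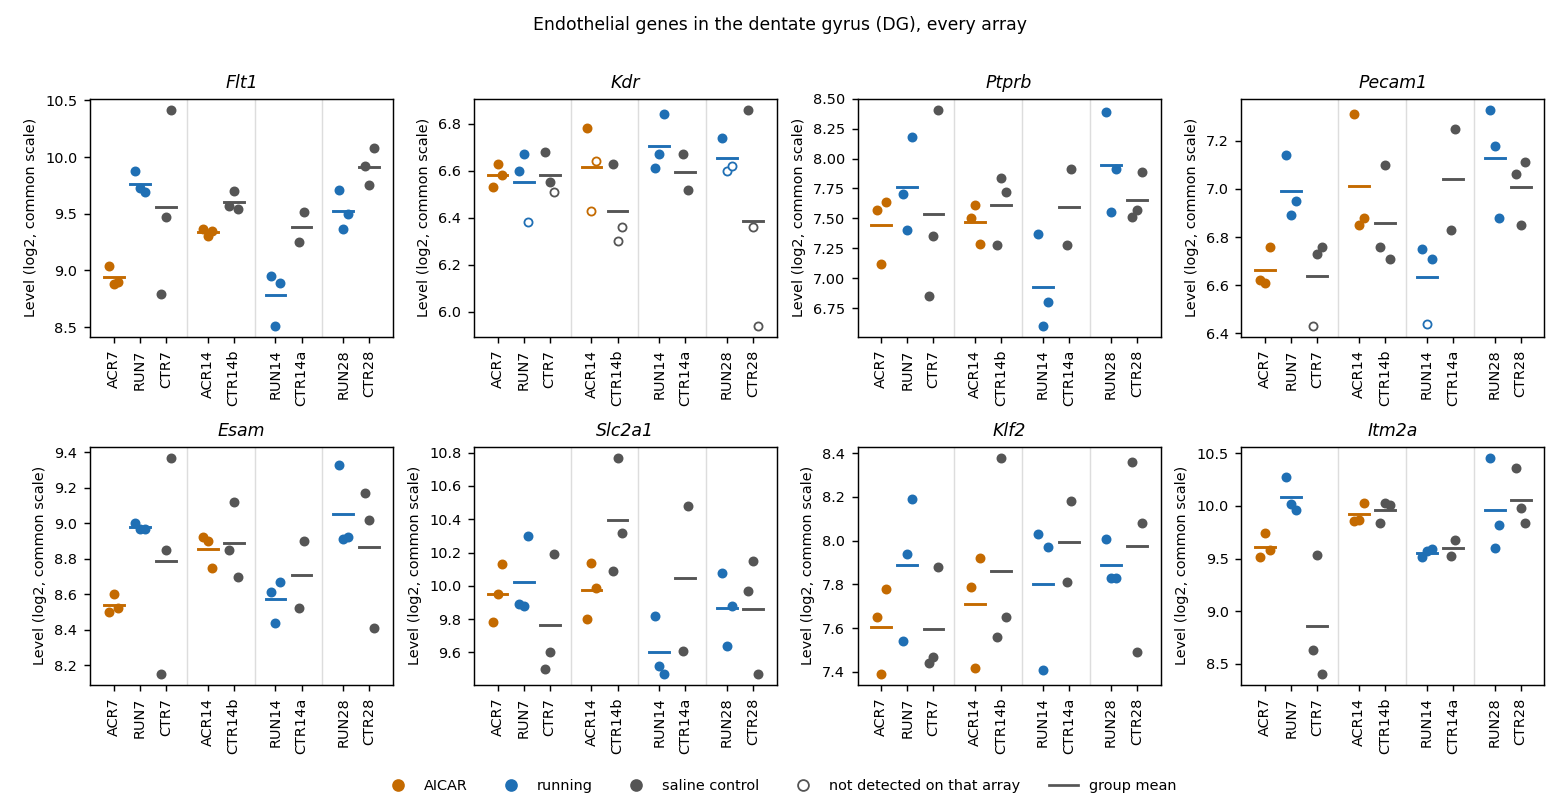
Level of the 8 tested endothelial genes on each of the 26 DG arrays (log2, common scale; each gene has its own axis), by group, with open circles for arrays where the probe was not detected and a bar for the group mean. The CTR7 arrays spread from 8.79 to 10.42 for Flt1, and 2 of them are the lowest of all for Itm2a, at 8.40 and 8.63.

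The tissues were compared directly with the mouse as a block. Over all groups, Flt1 was 0.33 higher in DG than in LEC (SE 0.082, adjusted p = 0.000456) and Pecam1 0.26 (SE 0.053, adjusted p = 3.9e-05), while Kdr was 0.10 lower (log2 difference -0.10, SE 0.042, adjusted p = 0.0256), a call that was lost over the control (CTR) arrays alone (adjusted p = 0.137). These 3 calls among 8 members compare with 69.3% of all genes called. Flt1 ran from 8.51 to 10.42 over DG arrays and from 7.75 to 9.76 over LEC arrays, each on the scale of its tissue, and Pecam1 was detected on 24 of 26 DG arrays and 15 of 28 LEC arrays. Kdr was detected on 16 DG arrays and 23 LEC arrays, with levels of 6.30 to 6.65 over the LEC arrays. Ptprb, Klf2, Esam, Slc2a1 and Itm2a differed by -0.05 to 0.17 and were not called. For the effect of 7 days of running, the DG and LEC effects differed for Itm2a, by 0.92 (SE 0.261, adjusted p = 0.0472), where 2.5% of all genes were called and 1.13% in that direction. That call was lost under quantile or neqc scaling, without the detection filter, and without 6 of the 8 mice of these groups in turn. For Flt1 the DG effect was below the LEC effect by 1.10 (log2 difference -1.10, SE 0.344, adjusted p = 0.0684), and for Ptprb by 1.01 (log2 difference -1.01, SE 0.386, adjusted p = 0.128), so the called LEC rises are not shown to differ from the DG values. The difference for Flt1 was called without either of 2 CTR7 mice. For the effect of 7 days of AICAR 0 members were called, where 0.233% of genes were called, and 1 had an unadjusted p under 0.05, against 17.2% of genes (Itm2a, 0.99, SE 0.261, adjusted p = 0.0748), and leaving out 1 CTR7 mouse at a time gave a call for Itm2a without one of them and for Esam without another. The 14-day effects gave 0 calls among all genes. Unadjusted, 0 members stood under 0.05 for AICAR, against 5.87% of genes, and 1 (Pecam1) for running, against 1.82% of genes. The 28-day effect gave 0 member calls, where 4.17% of genes were called, and 2 members had an unadjusted p under 0.05, against 21% of genes (Klf2, 0.74, adjusted p = 0.168).

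Pairs of members tended to vary together over arrays. Over the 28 LEC arrays, the 28 pairs of members correlated at a median r of 0.48 (0 to 0.90), and over the 26 DG arrays at a median of 0.38 (-0.41 to 0.75). With group means removed the medians were 0.12 in LEC (-0.55 to 0.83) and 0.34 in DG (-0.43 to 0.8), so that the order of the tissues turned round. In LEC Itm2a then ran against Flt1 (-0.55), Ptprb (-0.45) and Slc2a1 (-0.38), and was positive with Kdr alone (0.07). These arrays share groups, mice and scaling, so the values are descriptions. The genes outside the members whose levels followed the mean of the 8 members most closely in LEC were Cxcl12 (r = 0.93), Icam2 (0.91), Gata2 (0.90), Mmrn2 (0.90) and Robo4 (0.89), among 8545 genes. In DG they were Tgm2 (0.88), Slc9a3r2 (0.84), Mmrn2 (0.83), Hspa12b (0.83) and Vtn (0.81), among 8757. With group means removed the correlations of these genes were 0.6 to 0.78 in LEC and 0.79 to 0.89 in DG. Mmrn2, a matrix protein that endothelium lays down, was in both lists. The mean of the members followed that of 8 pericyte and vessel wall genes at r = 0.78 over the LEC arrays and 10 such genes at 0.82 over the DG arrays. Its correlation with the mean of 7 microglial markers was -0.51 in LEC and 0.15 in DG, or -0.32 in LEC and -0.25 in DG with group means removed.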

How the data were processed

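RNA of DG and LEC was hybridised to Illumina MouseRef-8 beadchips. The authors scanned the arrays and deposited, from GenomeStudio 1.6.0, a signal intensity per probe with no background correction or normalization. They deposited a detection p-value beside each, which says how often a signal of that size arises without target. The deposited value table holds a score per probe that the authors made by z-transforming log intensities within each array, and the scores recomputed here differed by at most 5e-10. Of 25697 probes, 23978 have 1 symbol in the platform annotation and 1719 have none.

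Here log2 intensities were z-transformed within each array and scaled by 1 SD per fit, the average over its arrays (1.855 in DG, 1.748 in LEC, 1.799 over both). Probes with a detection p of 0.02 or less on every array of at least 1 group were kept, and the probe of a gene with the highest mean signal was used. limma 3.58.1 in R 4.3.3 fitted 1 mean per group over all arrays of a tissue, with Benjamini-Hochberg adjustment over all genes. The fit over both tissues had the mouse as a random block (consensus correlation -0.0601). Scripts were tested on simulated data. The number of arrays limits the precision, and p-values measure the spread between mice of these groups.

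Where a probe was not detected on any array of a group, the fold is a bound against the lowest detected signal of each array. All 10 members are named, with values per array where one was called and otherwise for the member with the smallest p, and 5 genes per tissue by their correlation with the mean of the members. Members and lists were chosen with earlier results of these data known. Alternatives were another scaling (quantile), neqc with an offset of 16, the deposited z-scores, other detection filters, every probe, fewer arrays, a replicate block, array weights, other 14-day controls, and each array or mouse left out in turn. The deposited z-scores match the recomputed ones, so that alternative could not change a call and checks the computation only. Sets of mice were not labelled with a processing batch, so none was fitted. The labels give 28-day groups that the methods do not describe.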

Additional observations from a re-analysis of the deposited data

Results flagged for a closer look

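In the LEC of CTR28 mice, replicate 3 stood apart from the other 3 arrays for Flt1, at a level of 9.01 beside 9.49 to 9.59. This was 1 of 8 pairs of a member and a group of 4 arrays that were examined, and chance alone singles out about 1 in 20 such groups. The same array had the lowest SD of log2 intensities among the 54 arrays (1.572, where the median was 1.781), and levels were scaled by that SD. Its part in the Flt1 level was not tested.

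For 4 members the running effect in the LEC differed between times, with the 28-day effect below the 7-day effect by -1.94 for Flt1, -1.82 for Klf2, -1.72 for Ptprb and -0.90 for Slc2a1 on the log2 scale. Pecam1 was called as well, at -0.65, but passed the detection filter in LEC only through RUN7 and CTR28, whose high levels make this difference negative. In the DG the same contrast was -1.33 for Itm2a. The DG effect of 7 days of running was above the LEC effect by 0.92 for Itm2a.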

How the results depend on the processing

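No result changed direction under any alternative once called. Of 26 calls of a member in a comparison, 14 were kept under every alternative that left no array out, 12 without each array or mouse in turn, and 11 under both. In a fit of the compared arrays alone, 0 members were called for RUN7 against CTR7 in LEC and 0 in DG, where 0 and 1 of all genes were called. With a detection p of 0.01 or less on every array, 1 was called for ACR7 against RUN7 in LEC and 1 for DG against LEC, among 2 and 4660 genes called. This filter leaves fewer genes. With array weights, 5 were called for RUN28 against CTR28 in LEC (of 2641 genes called) and 4 for ACR7 against RUN7 in DG (of 1529). For CTR14b against CTR14a in LEC, 1 was called (Itm2a, of 56). With the other control set, 1 was called for ACR14 in LEC (Itm2a, of 126 genes called). In these other cases the cause was not tested.

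Replicate numbers did not pair the samples, as same-numbered arrays deviated together in some pairs only. With the replicate number as a block, 1 member was called for RUN28 against CTR28 in LEC, as Flt1 and Slc2a1 lost theirs (adjusted p = 0.0854 and 0.131). Slc2a1 also lost its call for RUN7 against CTR7 (adjusted p = 0.0822), and Esam for ACR7 against RUN7 (adjusted p = 0.104). The block ended no other call. No paired analysis was possible for ACR14 because it shares no replicate number with CTR14b.

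With each array left out in turn, the members called ranged from 0 to 3 for RUN7 against CTR7 in LEC, from 1 to 2 for RUN28 against CTR28 and for ACR7 against RUN7, and from 0 to 1 for ACR7 against CTR7. In DG they ranged from 0 to 1 for RUN7 and for ACR7, and with each mouse left out from 2 to 4 for DG against LEC. The number of all genes called moved too, from 0 to 410 for RUN7 against CTR7 in LEC. Signal near background limits Pecam1, Kdr and Cdh5.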
